A study of Gallus gallus with 2 samples.

Results

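The genes described here encode ligands, receptors and extracellular regulators of TGF-beta and activin signalling. They were picked by gene symbol from a list of 10, namely TGFB1, TGFB2, TGFB3, INHBA, INHBB, TGFBR1, TGFBR2, TGFBR3, FST and LTBP1. All 10 were in the table of 24356 rows, and all 10 were among the 13947 genes compared. The study, whose title links SOCS2 to reduction of the third digit of the chicken wing, used mRNA sequencing of 2 wings of 1 embryo. SOCS2 is a suppressor of cytokine signalling. The injected right wing received RCAS-GFP-SOCS2, a replication-competent avian retrovirus vector carrying GFP and SOCS2. The uninjected left wing of the same embryo was the control. Both wings were taken 5 days after infection, at Hamburger-Hamilton stage 34, from an embryo selected because it overexpressed SOCS2.

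Each group held 1 library among the data used here, so the differences below have no replicate check, and no p-value or standard deviation can be given. The injected wing was also the right wing and the only one given virus, so SOCS2, side and virus cannot be told apart. Levels are in TPM, a unit of transcript abundance that allows for transcript length and has an equal sum in either library. It carries no read depth, so that of the 2 libraries is unknown. Ratios are differences in log2(TPM + 0.1), injected minus uninjected, and a gene was called past the fold when that ratio exceeded 1.5-fold, a rule of size and not a test. SOCS2 stood at 254 TPM in the injected wing and 54.2 TPM in the uninjected wing (log2 ratio 2.23). The median log2 ratio of all genes compared was −0.04, with the 5th and 95th percentiles at −0.57 and 0.40. TBX5, the transcription factor that marks the forelimb, was at 137 TPM in the injected wing, against 113 TPM in the uninjected wing.

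TGF-beta ligands are secreted in a latent form, held in the matrix by latent TGF-beta binding proteins such as LTBP1, and released before they bind. Active ligand assembles a type II receptor, TGFBR2, with a type I receptor, TGFBR1, which phosphorylates SMAD2 and SMAD3. TGFBR3, or betaglycan, is a co-receptor that presents ligand, TGFB2 in particular. INHBA and INHBB encode the beta subunits of activins, which use activin receptors to reach the same SMADs, and follistatin, encoded by FST, binds activin and keeps it from its receptors. In the chick limb, TGF-beta and activin are known to promote the cartilage condensations of the digits.

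TGFB1 (ENSGALG00000031325) was lower in the injected wing and was the only one of the 10 genes past 1.5-fold. It stood at 27.7 TPM in the injected wing and 47.0 TPM in the uninjected wing, which was 1.70-fold lower (log2 ratio −0.76). The other 9 genes lay between −0.16 and 0.30 on the log2 scale. Over all genes compared, 4.79% were lower and 2.23% higher past the same fold. That is 7.02% in either direction, beside 1 of these 10 genes. With so few genes, a count of 1 says nothing particular about them as a group. Among the 10424 genes whose mean level lay within the range of these 10, from 7.36 to 384 TPM, 2.03% were lower and 0.844% higher past the fold, or 2.88% in all. The ratio of TGFB1 was undercut by 119 of those genes, or 1.14%. That share belongs to a gene singled out as the lowest of the 10, not to one fixed in advance. In bulk RNA, fewer cells of a type and less RNA per cell cannot be told apart.

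**Figure D1:**
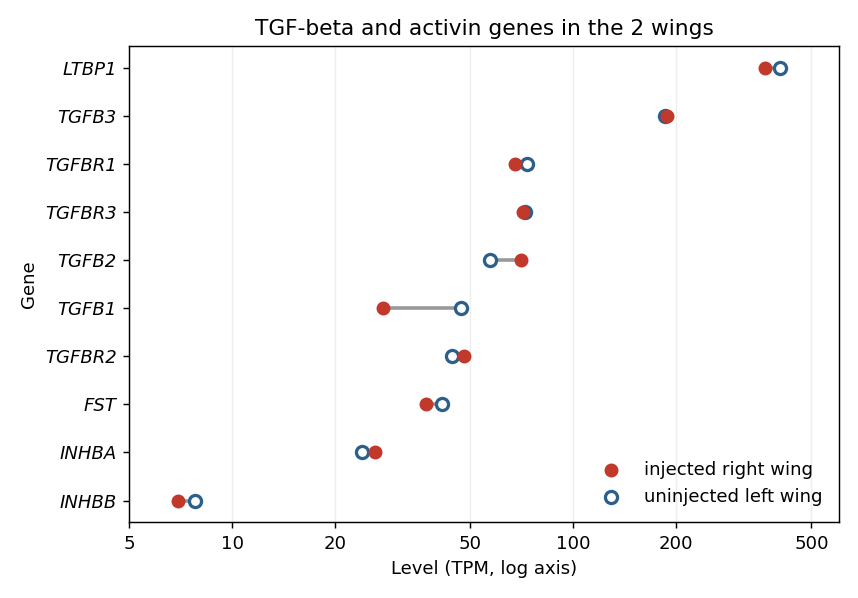
Levels of the 10 genes in TPM on a log axis, with 1 point for the injected right wing (filled) and 1 for the uninjected left wing (open), ordered by the uninjected level. The widest gap on this axis is that of TGFB1, at 27.7 TPM in the injected wing, against 47.0 TPM in the uninjected wing, and the points of TGFB3 nearly coincide.

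The levels of these genes spanned a wide range within each wing. LTBP1 was the most abundant, at 365 TPM in the injected wing and 403 TPM in the uninjected wing, above 97.5% and 97.7% of the genes compared. INHBB was the least abundant, at 6.94 TPM in the injected wing, against 7.78 TPM in the uninjected wing. TGFB3 held the second place in both wings, and INHBA and INHBB the last places. TGFB1 stood eighth of the 10 in the injected wing and sixth in the uninjected wing, below FST and TGFBR2 in the injected wing only. With 1 library per wing there is no spread against which neighbours in this order could be told apart.

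The 3 TGF-beta ligands differed from one another in their ratios. TGFB2, the isoform for which betaglycan is most needed, was at 70.3 TPM in the injected wing and 57.0 TPM in the uninjected wing. Its log2 ratio of 0.30 was within 1.5-fold and the highest of the 10, and 440 of the 10424 genes in the same range of levels (4.22%) had a higher one. That share, too, is for a gene singled out as an extreme of the 10. TGFB3 was at 189 TPM in the injected wing, against 187 TPM in the uninjected wing (0.02). TGFB1 was thus lower past the fold, TGFB2 was higher inside the fold limit, and TGFB3 was nearly level.

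Because TPM is per length, the 3 ligands can be added and their shares compared. The summed level was 287 TPM in the injected wing and 291 TPM in the uninjected wing (log2 ratio of the sums −0.02). TGFB3 made up 65.8% of the sum in the injected wing, against 64.2% in the uninjected wing, so it was the main isoform in both. TGFB2 made up 24.5% in the injected wing, against 19.6% in the uninjected wing. TGFB1 made up 9.68% in the injected wing, against 16.2% in the uninjected wing. The level of TGFB2 was 2.53 times that of TGFB1 in the injected wing, against 1.21 times in the uninjected wing. The ligand total was therefore close in the wings while its make-up differed in these 2 libraries.

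**Figure D2:**
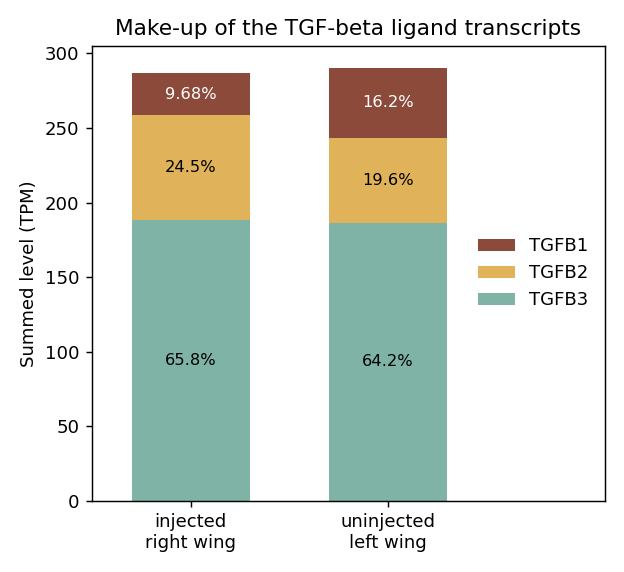
Summed TPM of TGFB1, TGFB2 and TGFB3 in the injected right wing and the uninjected left wing, 1 library each, with the share of each ligand printed in its segment. The bars reach 287 and 291 TPM, and the TGFB1 segment is 9.68% of the injected bar and 16.2% of the uninjected bar.

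The activin subunit genes lay within 1.5-fold. INHBA, which encodes the subunit of activin A, was at 26.3 TPM in the injected wing, against 24.1 TPM in the uninjected wing (log2 ratio 0.13). INHBB, which encodes the subunit of activin B, had a log2 ratio of −0.16. The level of INHBA was 3.79 times that of INHBB in the injected wing, against 3.10 times in the uninjected wing. Both wings thus held more transcript of the activin A subunit than of the activin B subunit.

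FST, the activin antagonist, was at 37.1 TPM in the injected wing and 41.4 TPM in the uninjected wing (log2 ratio −0.16). Set against the summed level of INHBA and INHBB, FST was 1.12 times as high in the injected wing, against 1.30 times in the uninjected wing. FST transcript therefore exceeded that of the activin beta subunits in both wings. LTBP1, which anchors latent TGF-beta in the matrix, had a log2 ratio of −0.14. Its level was 1.27 times the summed level of the TGF-beta ligands in the injected wing, against 1.39 times in the uninjected wing.

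All 3 receptor genes lay within 1.5-fold, between −0.12 and 0.12 on the log2 scale. TGFBR1, the type I receptor, was at 67.6 TPM in the injected wing, against 73.4 TPM in the uninjected wing (−0.12). TGFBR2, the type II receptor, was at 47.9 TPM in the injected wing and 44.1 TPM in the uninjected wing (0.12). TGFBR3, the betaglycan gene, was at 71.5 TPM in the injected wing, against 72.4 TPM in the uninjected wing (−0.02), a ratio that lay above 0 with the other scalings and with the abundance trend removed. TGFBR1 exceeded TGFBR2 in both wings, at 1.41 times its level in the injected wing, against 1.67 times in the uninjected wing.

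**Figure D3:**
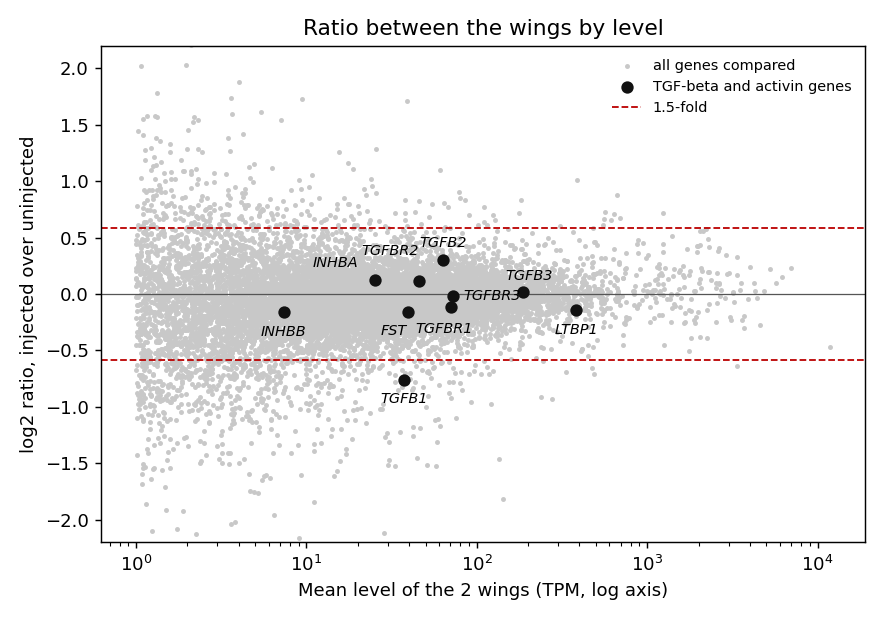
The log2 ratio of injected over uninjected against the mean level of the 2 wings in TPM (log axis), with 1 grey point per gene compared, black points for the 10 genes and dashed lines at 1.5-fold. TGFB1 lies below the lower line at −0.76 and the other 9 lie between the lines; 20 genes beyond 2.2 on the log2 axis are not drawn.

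Position in the genome gave a further description of TGFB1. The gene order of RefSeq assembly GRCg7b was used for order alone, with protein-coding genes matched by a symbol that occurred once. Of the 13947 genes compared, 10977 had a symbol, so genes lying closer to TGFB1 may have been passed over. The 4 nearest matched genes on each side of TGFB1 had log2 ratios between −0.49 and 0.16 (median −0.10), none past 1.5-fold. EIF3K, at 0.16, was the only gene of these above 0. Having no neighbour past the fold was not particular to TGFB1. Around all the genes described here, 0 of 80 such neighbours were past it, against 7.02% of all genes compared. Among genes whose mean level lay within the range of the genes described here, the share was 2.88%. A count of 0 among 80 says little beside that share. SELENOW, the nearest matched gene on one side, was at 439 TPM in the injected wing and 452 TPM in the uninjected wing (−0.04). HNRNPUL1, the nearest matched gene on the other side, was at 73.8 TPM in the injected wing, against 77.6 TPM in the uninjected wing (−0.07). TGFB1 thus had a lower ratio than each of these 8 matched genes, the lowest of which was KPTN at −0.49. That order says little, because TGFB1 was singled out as the lowest of the genes described here.

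Other genes of the pathway were grouped by role. Over 5 lists that include the 10 genes, 77 different genes were compared, of which 1 was higher and 4 lower past 1.5-fold. That share of 6.49% stood between the 7.02% of all genes compared and the 2.88% of genes in the range of levels of the 10. Single lists held only 9 to 24 genes compared, so their counts, 0 included, say little beside these shares. The median log2 ratio over these genes was −0.06, against −0.04 for all genes.

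Among 9 ligands, 2 were lower, TGFB1 and INHA. INHA encodes the alpha subunit that turns an activin subunit into inhibin, and its level was low, at 1.09 TPM in the injected wing and 2.15 TPM in the uninjected wing (log2 ratio −0.92). Myostatin, listed as GDF8, restrains muscle growth and was at 48.1 TPM in the injected wing, against 40.3 TPM in the uninjected wing (0.26). Myostatin was picked after its value was seen. The median of the ligand list was 0.05.

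Among 11 receptors and co-receptors, 1 was lower. BAMBI, a pseudoreceptor that dampens TGF-beta and BMP signalling and is itself a target of BMP signalling, was at 36.5 TPM in the injected wing and 58.4 TPM in the uninjected wing (−0.67). The activin type II receptor gene ACVR2A was at 109 TPM in the injected wing, against 117 TPM in the uninjected wing (−0.10), and ACVR2B was at 8.59 TPM in the injected wing and 10.4 TPM in the uninjected wing (−0.27). The activin type I receptor gene ACVR1B was at 39.1 TPM in the injected wing, against 43.7 TPM in the uninjected wing (−0.16). ACVR2A transcript was therefore far above ACVR2B in both wings. ACVR1, a type I receptor shared with BMPs, was at 75.6 TPM in the injected wing and 70.8 TPM in the uninjected wing (0.09). ACVRL1, a type I receptor of endothelial cells, was at 20.9 TPM in the injected wing, against 22.1 TPM in the uninjected wing (−0.08). The co-receptor gene ENG, which encodes endoglin, was at 52.8 TPM in the injected wing and 53.4 TPM in the uninjected wing (−0.02). Of the 11 genes, 2 were above 0 and 9 below, and all but BAMBI lay within the fold. The median of all genes compared was itself below 0, at −0.04. ACVR1C, a further type I receptor gene, was below the minimum level, at 0.14 TPM in the injected wing, against 0.68 TPM in the uninjected wing. The median of the receptor list was −0.09.

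None of 18 genes of extracellular binding, latency and activation was past the fold, against 7.02% of all genes compared. The list median was −0.07. The most abundant that are not among the 10 genes were DCN, which encodes the TGF-beta binding proteoglycan decorin, and the follistatin-like gene FSTL1. DCN was at 1935 TPM in the injected wing and 1896 TPM in the uninjected wing (0.03), and FSTL1 at 1578 TPM in the injected wing, against 1770 TPM in the uninjected wing (−0.17). LTBP2, a relative of LTBP1, was at 93.0 TPM in the injected wing and 101 TPM in the uninjected wing (−0.12). No row was matched to the symbols LTBP3 and LTBP4. FSTL3, which like follistatin binds activin, was at 23.7 TPM in the injected wing, against 17.3 TPM in the uninjected wing (0.46). FSTL5 was at 1.58 TPM in the injected wing and 2.15 TPM in the uninjected wing (−0.42), and FSTL4 at 24.2 TPM in the injected wing, against 24.3 TPM in the uninjected wing (−0.01). The follistatin-like genes thus differed in direction, all within the fold. ITGB8, an integrin subunit that activates latent TGF-beta, lay at −0.56, just inside the fold limit, and is named after its value was seen.

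Of 19 genes of the intracellular SMAD pathway, 0 were past the fold, against 7.02% of all genes compared. Their log2 ratios lay between −0.33 and 0.23. SMAD3 was at 206 TPM in the injected wing and 198 TPM in the uninjected wing (0.05). SMAD2, listed as SMAD2Z, was at 38.4 TPM in the injected wing, against 44.7 TPM in the uninjected wing (−0.22). SMAD3 thus exceeded the row listed as SMAD2Z in both wings. The most abundant members of this list were FKBP1A, whose product binds the type I receptor, at 419 TPM in the injected wing and 443 TPM in the uninjected wing (−0.08), and SMAD3. SMAD4 and SMAD7 were not analysed here, because no row was matched to either symbol. A further 10487 rows carried no symbol and could not be matched in this way.

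Of 24 genes known as targets of TGF-beta signalling, 1 was higher and 1 lower past the fold. POSTN, which encodes the matrix protein periostin, was at 683 TPM in the injected wing, against 431 TPM in the uninjected wing (0.66). GADD45B, a stress-response gene that TGF-beta can induce, was at 13.8 TPM in the injected wing and 27.9 TPM in the uninjected wing (−1.01). The called targets thus went in opposite directions. The list median was −0.15, against −0.04 for all genes compared, and 15 of the 24 had ratios below 0. Of all genes compared, 55.7% lay below the −0.02 of TGFBR3 and 62.9% below the 0.02 of TGFB3. A majority below 0 was thus shared with the whole table. TGFBI, named for its induction by TGF-beta, was at 380 TPM in the injected wing, against 521 TPM in the uninjected wing (−0.46), and the collagen gene COL1A1 was at 1952 TPM in the injected wing and 2551 TPM in the uninjected wing (−0.39), both within the fold. TGFBI and COL1A1 were named after their values were seen, and neither is controlled by TGF-beta alone. COL1A1, COL3A1, SCX and POSTN also stand in the list of tendon and connective tissue markers. ACTA2 (0.23) and TAGLN (0.14) also stand in the list of smooth muscle and pericyte markers.

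**Figure D4:**
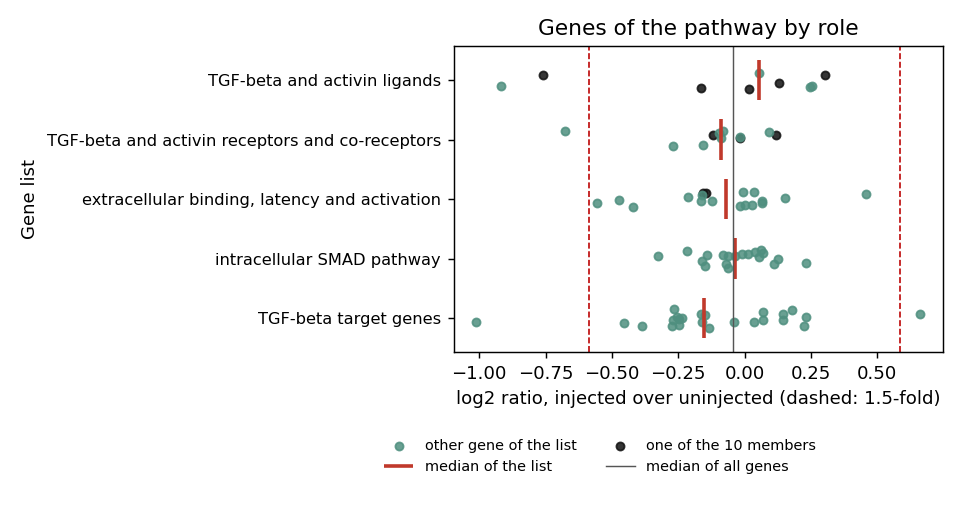
The log2 ratio of injected over uninjected for the genes of 5 pathway lists, with black points for the 10 genes, green points for other genes, a red bar at each list's median, a thin line at the median of all genes and dashed lines at 1.5-fold. Points beyond the dashed lines are TGFB1, INHA, BAMBI and GADD45B on the lower side and POSTN on the higher side.

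Markers of the tissues in the wing also differed between the libraries, and their part in the ratio of TGFB1 was not tested. Of 85 marker genes compared over 10 lists, 11 were higher and 8 lower past the fold, or 22.4%. Over all genes compared, 2.23% were higher and 4.79% lower, or 7.02%. The lists were chosen with earlier results of these data known. Of the 85, 43 lay above 0 and 42 below, while 55.7% of all genes lay below the −0.02 of TGFBR3. Of 8 red blood cell genes compared, 8 were below 0 and 4 lower past the fold, with a summed level of 1668 TPM in the injected wing, against 2015 TPM in the uninjected wing (list median −0.57). Of 8 epidermis genes, 7 were below 0 and 1 lower past the fold, with a sum of 339 TPM in the injected wing and 409 TPM in the uninjected wing (list median −0.30). The epidermis marker KRT75 was listed at 0 in the uninjected wing alone, and no other marker was at 0 in either wing. Of 7 limb mesenchyme genes, 3 were above 0 and 4 below. HOXD12, HOXD13 and MSX1, all genes of the distal limb, were lower past the fold, and PRRX1 lay at −0.23, within the fold. TBX5, TWIST1 and LHX9 lay at 0.28, 0.22 and 0.06. The list summed to 615 TPM in the injected wing, against 804 TPM in the uninjected wing. Of 10 tendon and connective tissue genes, 7 were below 0 and 2 higher past the fold, OSR1 at 0.85 and POSTN at 0.66, with 0 lower. This list summed to 6741 TPM in the injected wing and 7362 TPM in the uninjected wing.

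The remaining marker lists, like that of tendon and connective tissue, had no gene lower past the fold. Of 11 cartilage genes, 10 were above 0 and 2 higher past the fold, with sums of 3376 TPM in the injected wing, against 2763 TPM in the uninjected wing. Of 11 skeletal muscle genes, 10 were above 0 and 2 higher past the fold, with sums of 4197 TPM in the injected wing and 3599 TPM in the uninjected wing. Of 7 smooth muscle and pericyte genes, 6 were above 0 and 1 higher past the fold. Of 8 Schwann cell and nerve genes, 4 were higher past the fold and the other 4 below 0, with sums of 184 TPM in the injected wing and 174 TPM in the uninjected wing. For macrophage genes, 0 of 8 were past the fold, with sums of 201 TPM in the injected wing, against 207 TPM in the uninjected wing. For endothelial genes, 0 of 7 were past the fold, with sums of 351 TPM in the injected wing and 361 TPM in the uninjected wing.

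**Figure D5:**
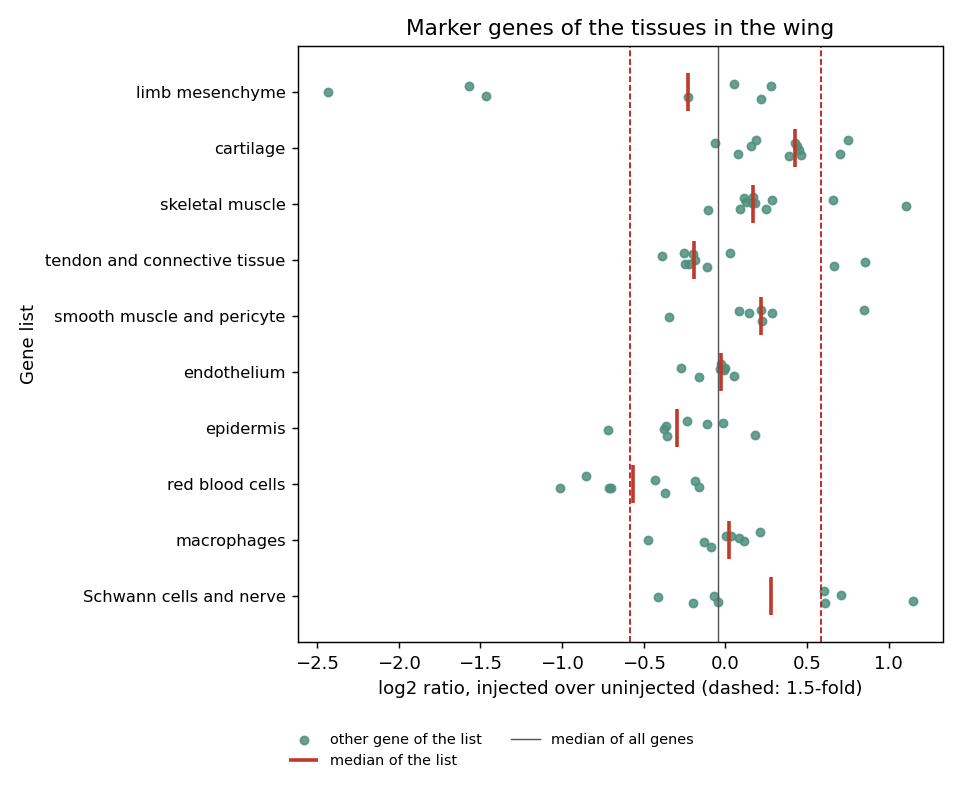
The log2 ratio of injected over uninjected for marker genes of 10 tissues, with a red bar at each list's median, a thin line at the median of all genes and dashed lines at 1.5-fold. The red blood cell median lies at −0.57 and the cartilage median at 0.43, while the endothelium and macrophage medians lie at −0.02 and 0.02.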

How the data were processed

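The authors deposited 1 TPM column per wing. Per the submitters' processing notes, HISAT2 2.2.1 and StringTie 2.1.7 were used with the build GRCg6a. The role of each tool, the annotation release and the strand setting were not given in sources used here. A second table, of raw counts per gene, was not used. Its 2 columns have names that match neither sample, and no source used here says which wings or embryo they come from, so they gave no replicate and no depth. TPM is scaled within a library, so abundant genes move all others.

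Genes were compared where the mean over both wings reached 1 TPM and neither value was 0, without 1306 short RNA rows. The pseudocount of 0.1 understates the ratios of low genes. The ratios and calls were tested on simulated data, with planted changes of 2-fold or more in genes at a mean of at least 5 TPM. The simulated noise was alike at all levels and was not set from the spread of these data. Changes near the 1.5-fold limit, such as that of TGFB1, were not planted, and false calls were not counted. The 10 genes and all lists were chosen with earlier results of these data known. Named were all 10, up to 3 other genes past the fold in each direction per list, and the 2 most abundant where none was. The type I and type II receptor, SMAD, follistatin-like and LTBP families were also named. The co-receptor gene ENG was named outside this rule. Older symbols matched 5 entries through RefSeq. Alternatives were 3 scalings, 2 pseudocounts, 2 filters, removal of the abundance trend, keeping short RNAs and a 2-fold rule, and, added after seeing the data, the lists without the 10 genes. Python 3.11.15, pandas 2.3.3, NumPy 2.4.6, statsmodels 0.14.6 and matplotlib 3.10.9 were used.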

Additional observations from a re-analysis of the deposited data

How the results depend on the processing

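TGFB1 kept its direction and its place past 1.5-fold under the 9 alternatives that keep that rule, with log2 ratios between −0.76 and −0.71. Most of these could hardly have changed its call. The 2 filters and keeping short RNAs leave its ratio at −0.76 by construction. The 3 scalings shift all ratios by nearly the same small amount, and a pseudocount matters little at the level of TGFB1. At a 2-fold rule TGFB1 was no longer past the fold, at −0.76, which left 0 of the 10 genes. The other 9 genes stayed within the fold throughout; TGFBR3 ranged from −0.02 to 0.04. Genes higher in the whole table numbered 186 with a pseudocount of 1 TPM, 831 with no filter on the mean, 122 at a mean of at least 5 TPM and 70 at 2-fold, against 311. Genes lower numbered 432, 1297, 292 and 207 in the same order, against 668. With the abundance trend removed the split was 430 higher and 524 lower, and with the 3 other scalings between 382 and 391 higher and between 574 and 584 lower. With no filter the ligands had 1 higher gene, GDF9 (0.51 TPM injected, 0.20 TPM uninjected), and the receptors 2 lower ones, as ACVR1C joined BAMBI. The ligands had 1 lower gene at a mean of at least 5 TPM, which INHA did not reach. They also had 1 without the 10 genes, which include TGFB1. At 2-fold the ligands and receptors had 0 lower genes and the targets 0 higher ones, by the stricter rule's construction. The whole-table counts at 2-fold, with either filter and with a pseudocount of 1 TPM also changed by construction. The 3 other scalings raise all ratios by nearly the same amount, which moved the all-gene median from −0.04 to between 0 and 0.01. By construction this adds higher genes and removes lower ones. For the counts with the abundance trend removed, the cause was not tested. A correction for GC content was not run, because no sequences were used here. No paired analysis was possible because each group held 1 library. The read depth is unknown.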
